A study of Homo sapiens with 9 samples.

Results

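H3K4me3 islands of BEAS-2B cells were compared between mdig knockout (KO) and wild-type (WT) cells. The members are all islands of the 2 H3K4me3 libraries on chromosomes 1 to 22 and X, 17202 in WT and 17499 in KO, which makes 34701 of the 141489 islands in the 8 ChIP-seq libraries of the series. An island is a stretch of the genome in which enriched windows of reads were joined, given by its start and end alone.

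BEAS-2B cells derive from normal human bronchial epithelium and were immortalized with a viral hybrid. Both groups came from cells transfected with a CRISPR-Cas9 vector that carried a guide against exon 3 of the mdig gene and a blasticidin resistance. Colonies that kept mdig protein served as WT and colonies that lacked it as KO, so both are selected clonal populations, and both were grown in DMEM with serum and blasticidin. H3K4me3, H3K27me3, H3K9me3 and H3R8me2a were each immunoprecipitated once from WT and once from KO, with 1 input of WT, so no difference below has a replicate, an error or a test.

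Trimethylation of lysine 4 of histone H3 is laid down by SETD1 and KMT2 complexes and is removed by KDM5 and related demethylases. It marks the starts of active genes and of genes poised for activation, most of all those with CpG-rich promoters, where the CXXC domain of CXXC1 and of KMT2 proteins binds unmethylated CpG. At developmental genes it can stand together with H3K27me3, the mark of Polycomb repression, a state called bivalent.

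RIOX2, the gene that encodes mdig (ENSG00000170854.18), had a promoter island of 3 kb in WT and of 3.8 kb in KO. The WT island ran from 97689001 to 97692000 on chromosome 3 and the KO island from 97688401 to 97692200 (GRCh37). The start of the targeted gene thus carried the mark in both libraries. Since island coordinates contain no reads, they check neither the edit nor the labels.

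Sequences of 200 bases upstream of 5 annotated gene starts are shown because they include promoters with H3K4me3 in WT alone, in KO alone or wider in KO, some rich and some poor in CpG. They were read from the GRCh37 genome on the strand of the gene, with each CpG in capitals. IRX2, an Iroquois homeobox factor (chr5:2751792-2751991, minus strand), had an island in WT alone.
IRX2: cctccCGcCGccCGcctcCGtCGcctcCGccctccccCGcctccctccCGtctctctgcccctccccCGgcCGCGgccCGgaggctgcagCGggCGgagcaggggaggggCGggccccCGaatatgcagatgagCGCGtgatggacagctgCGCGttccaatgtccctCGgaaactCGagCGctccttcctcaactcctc
TAL1, a factor of blood and endothelial development (chr1:47697898-47698097, minus strand), COL7A1, the collagen of anchoring fibrils (chr3:48632763-48632962, minus strand), and CXCL5, a neutrophil chemokine (chr4:74864395-74864594, minus strand), had an island in KO alone, and CXCL8, the chemokine interleukin-8 (chr4:74606036-74606235, plus strand), had a wider island in KO. Each window lay fully under the island of the library with the mark, or for CXCL8 under the KO island.
TAL1: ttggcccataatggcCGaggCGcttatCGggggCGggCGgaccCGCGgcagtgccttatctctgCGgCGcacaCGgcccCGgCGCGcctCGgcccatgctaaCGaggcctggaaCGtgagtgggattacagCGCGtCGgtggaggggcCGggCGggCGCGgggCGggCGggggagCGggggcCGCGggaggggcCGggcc
COL7A1: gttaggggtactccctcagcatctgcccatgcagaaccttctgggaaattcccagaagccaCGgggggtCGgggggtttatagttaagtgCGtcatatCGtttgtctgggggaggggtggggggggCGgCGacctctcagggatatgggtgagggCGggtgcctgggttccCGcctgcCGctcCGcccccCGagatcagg
CXCL5: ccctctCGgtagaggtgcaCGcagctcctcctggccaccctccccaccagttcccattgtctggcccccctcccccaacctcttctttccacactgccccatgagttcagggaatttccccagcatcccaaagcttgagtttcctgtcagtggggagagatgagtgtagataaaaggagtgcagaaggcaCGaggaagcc
CXCL8: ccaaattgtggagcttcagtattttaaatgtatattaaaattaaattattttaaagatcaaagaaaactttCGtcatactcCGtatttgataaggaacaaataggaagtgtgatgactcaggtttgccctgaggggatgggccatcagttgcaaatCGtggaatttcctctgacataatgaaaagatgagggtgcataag
The number of CpG was 29 in TAL1, 23 in IRX2, 11 in COL7A1 and 3 in CXCL5 and in CXCL8. CpG-rich promoters thus stood in both directions, IRX2 with WT alone and TAL1 with KO alone. The motif TATAAA, searched on the strand of the gene, was in none of these 5 windows and in 5.86% of the same windows of all 20098 protein-coding genes.

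H3K4me3 covered more of the genome in KO and did so with wider islands. Islands covered 88.8 Mb in WT against 102.1 Mb in KO, which is 1.15 times as much. Their mean width was 5.16 kb against 5.84 kb, and islands of 10 kb or more numbered 1225 (7.12%) and 1843 (10.5%). The widest island was 58.8 kb in WT and 64.2 kb in KO. Width is the extent of the mark and not its strength. Such a sum depends on how much was called in each library, and the island tables used here hold no height or read number, so wider coverage and more permissive calling cannot be told apart.

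Joining WT and KO islands that overlapped by at least 1 base gave 18461 loci. Of these 15708 held islands of both libraries, 1150 (6.23%) held WT islands alone and 1603 (8.68%) KO islands alone. In 97.2% of the shared loci 1 WT island faced 1 KO island. At 265 loci 2 or more WT islands faced 1 KO island and at 123 the reverse. Loci in 1 library alone were mostly narrow. Among loci under 2 kb of mean width 48.8% were shared, and among those of 6 to 8 kb 97.8% were.

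At gene starts the mark was mostly present in both libraries and its flanks were wider in KO. A promoter was taken as 2 kb on both sides of the annotated start of a protein-coding gene. Of 20098 such promoters 13280 touched an island in at least 1 library and 12720 in both, with a median island width of 5.8 kb in WT against 6.4 kb in KO. A promoter was called wider when its KO islands were at least 1.5 times as wide as its WT islands and at least 1 kb wider, and narrower in the reverse case. By this rule of size 2041 of the 13280 marked promoters were wider (15.4%) and 526 narrower (3.96%), 311 had an island in WT alone (2.34%) and 249 in KO alone (1.88%). The split of width calls hung on the scale. Wider promoters made up 79.5% of the width calls as deposited, but 52.5% (1085 wider and 981 narrower) once KO widths were scaled to the same total length, and 56.0% (1030 and 810) once they were divided by the median ratio of their chromosome arm.

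The position just at the gene start hardly differed. It lay under an island in 62.5% of genes in WT and 62.4% in KO. At 3 kb upstream the share was 18.7% in WT and 23.7% in KO, and at 4 kb downstream it was 26.8% and 31.2%. Each edge was then measured at the 7721 loci in which 1 WT and 1 KO island both held a single coding start. The upstream edge lay a median 1.58 kb from the start in WT and 1.93 kb in KO, and the downstream edge 3.50 kb and 3.75 kb. The upstream edge lay farther out in KO at 56.5% of these loci and the downstream edge at 54.5%. Both edges lay farther out at 31.7% and both farther in at 9.75%. The median shift was 0.2 kb at either edge, which is 1 step of the 200 bp grid on which all island edges lie.

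**Figure D1:**
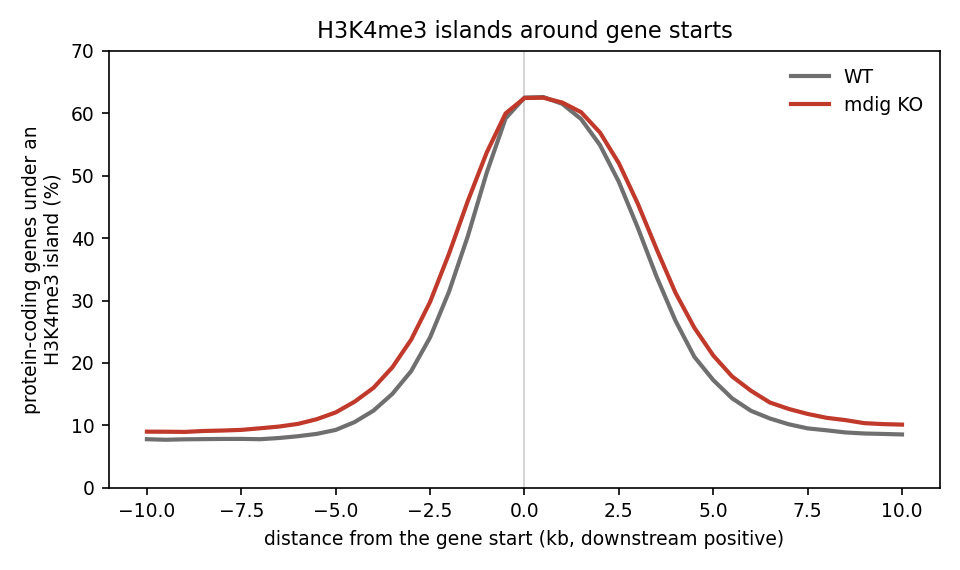
Percent of protein-coding genes (vertical axis) with an H3K4me3 island at each distance from the gene start (horizontal axis, kb, downstream positive) in WT (gray) and mdig KO (red), 1 library each. The lines meet at the start, at 62.5% and 62.4%, and the KO line lies above the WT line on both flanks.

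Promoters with H3K4me3 in WT alone were of 2 kinds, those with an island of their own and those at a locus that KO shared but where its island did not reach the promoter window. At 265 of the 311 the WT island overlapped no KO island, and at 46 it did. The WT island lay over the start itself at 215 of the 265 and at 13 of the 46. The median WT width of the 311 was 2.6 kb. The widest island of its own was at WNT3A, a Wnt ligand, where a WT island of 14.2 kb had no KO counterpart. NPTX1, a neuronal pentraxin, had 11.8 kb in WT, and 10.4 kb was shared by CHRD, the BMP antagonist chordin, and THPO, thrombopoietin. SHISA8 had 9.2 kb, RAB6B, a Rab GTPase of neurons, had 7.8 kb, and FOXJ1, the master factor of motile cilia, and IRX2 had 7.4 kb each. PTK6, a tyrosine kinase, had 7.2 kb, TMEM92 and TMPRSS15, enteropeptidase, had 6.6 kb each and MYO15B had 5.8 kb. CLDN5, the claudin of endothelial tight junctions, had 6.4 kb and NKX2-3, a homeobox factor, had 5.8 kb. Of these genes WNT3A, NPTX1, CHRD, THPO, SHISA8, RAB6B, IRX2, CLDN5 and NKX2-3 had H3K27me3 islands at the promoter in both libraries, FOXJ1 had 1 in WT alone, and PTK6, TMEM92, TMPRSS15 and MYO15B had none. Of the 25 promoters with the widest islands of this kind, 19 had H3K27me3 in both libraries and 4 in neither.

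The 10 widest WT islands at promoters marked in WT alone all belonged to loci that were shared, so that the KO island ended more than 2 kb from the annotated start. GPT, an alanine aminotransferase, had 28.2 kb, NPLOC4, a cofactor of the VCP segregase, had 22.4 kb, and GP1BA, a platelet glycoprotein, had 20 kb. PGAP6 had 19.4 kb, LENEP 17 kb, UNC13D, a factor of granule release, 16.8 kb, and NPFF, a neuropeptide precursor, 16.2 kb. ANXA2, annexin A2, and EGFL7, a secreted vascular factor, had 16 kb each and GGT6 had 15.2 kb. These widths are those of the WT islands that reached the promoter window and not of mark at the start alone. At NPLOC4 and EGFL7 the island lay over the start, at ANXA2 it lay within the gene, and at LENEP it began past the gene.

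Promoters with H3K4me3 in KO alone more often lay at a shared locus. At 137 of the 249 the KO island overlapped no WT island and at 112 it did, and in 107 of the 112 KO covered more of the locus than WT. The KO island lay over the start itself at 114 of the 137 and at 37 of the 112, and the median KO width of the 249 was 4.8 kb. Among islands of their own, ATP2C1, a calcium pump of the Golgi, had 14.4 kb at its annotated start. TAL1 and MST1R, a receptor kinase of epithelia, had 11.2 kb each and COL7A1 had 11 kb. CBX2, a Polycomb subunit, had 8.8 kb, KCNN3, a potassium channel, had 7.8 kb, ACE, angiotensin-converting enzyme, had 7.4 kb, and NKX2-2, a homeobox factor, had 6 kb. TAL1, CBX2, KCNN3 and NKX2-2 had H3K27me3 islands at the promoter in both libraries, while ATP2C1, MST1R, COL7A1 and ACE had none in either. Of the 25 promoters with the widest islands of this kind, 10 had H3K27me3 in both libraries and 14 in neither. ATP2C1, MST1R and COL7A1 lie on chromosome 3, whose loci as a whole were wider in KO.

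The 10 widest KO islands at promoters marked in KO alone were again parts of shared loci. AL590452.1 stood under 62.8 kb, HYAL1, a hyaluronidase, under 56.8 kb and FAM83C under 45.6 kb. PRR35 stood under 26.6 kb, COL11A2, a fibrillar collagen of cartilage, under 26.4 kb, and EHD1, a factor of endosome recycling, under 25.8 kb. TRIM17 stood under 25.4 kb, RNF223 under 25 kb, CTSW, a cathepsin of lymphocytes, under 24.2 kb and GREP1 under 22.2 kb. The islands at EHD1, FAM83C and CTSW lay over the start of the gene, while that at HYAL1 stopped short of it on the upstream side.

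Many of the largest differences of promoter width were found where a long island in one library faced several shorter ones in the other over much the same stretch. On 3p a KO island of 56.8 kb spanned RASSF1, a tumor suppressor (7.4 kb in WT), HYAL2 and TUSC2 (14.2 kb each), and CYB561D2, ENSG00000272104, NPRL2, TMEM115 and ZMYND10 (15.4 kb). The WT islands of that locus numbered 4 and covered 41.6 kb, so that its ratio was 1.37. On 9q LRRC26, a regulator of potassium channels, stood under 9.2 kb in WT but 51.8 kb in KO, and CYSRT1, ENSG00000284976, RNF208, RNF224 and SLC34A3 stood under 57.6 kb in WT but 31.8 kb in KO. Both calls fell in 1 locus, from 140056201 to 140154000 on chromosome 9, in which 4 WT islands covered 89.2 kb and 3 KO islands 95.8 kb, a ratio of 1.07. The calls there were opposite although nearly all of the stretch was covered in both libraries, with the gaps between islands at different points. AXIN1, the scaffold of beta-catenin destruction, went from 4.8 kb to 39.4 kb, each a sum over 2 islands. The first of its loci had 2.8 kb and 7.6 kb and the second 21.4 kb and 31.8 kb in all.

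Of the promoters with the largest decreases, GATD1 had 44.6 kb in WT and 14 kb in KO, but its locus held 78.8 kb and 77.8 kb. DVL1, a Wnt signal transducer, had 31.4 kb and 11.6 kb, in a locus of 31.4 kb and 30.4 kb. CAPN10, a calpain, had 37.8 kb and 8.2 kb, in a locus of 37.8 kb and 30.4 kb, and MAPK12, a p38 kinase, had 27.4 kb and 6.8 kb, in a locus of 27.4 kb and 21.6 kb. AGER, the receptor of glycated proteins, had 30.6 kb and 10.4 kb, and the WT width summed 1 island from each of 2 loci, of 17.6 kb and 10.4 kb and of 13 kb and 11.4 kb. Width calls at long islands thus depend on where a stretch is split, and genes under 1 island share its width, so these values are not independent.

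Away from gene starts the 2 libraries shared fewer loci and KO had more. A distal locus had no base within 2 kb of any annotated transcript start. Of 3901 distal loci 2211 were shared, 574 (14.7%) were in WT alone and 1116 (28.6%) in KO alone. At the 10669 loci over a coding gene start the shares were 2.4% and 1.27%, in the reverse order. Shared distal loci were a median 2.2 kb wide in WT and 2.8 kb in KO, with a median ratio of 1.25 against 1.103 at coding starts. By the rule of size 28.4% of the shared distal loci were wider and 4.75% narrower, against 14.7% and 3.26% of the shared coding-start loci. Distal loci were also narrower than promoter loci, and narrow loci were less often shared wherever they lay, so the part of width in the difference was not tested.

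Distal loci in KO alone lay farther from coding gene starts and had fewer CpG. Their median distance to the nearest coding gene start was 73.2 kb, against 58.9 kb for those in WT alone and 44.8 kb for shared ones. They did not lie in genes less often than shared ones, since 676 of the 1116 overlapped an annotated gene, against 361 of the 574 in WT alone and 1227 of the 2211 shared ones. The median observed to expected CpG ratio was 0.23, 0.29 and 0.30 in the same order, and the median GC content was 42.7%, 48.2% and 46.4%. The median width was 2 kb for distal loci in KO alone and 1.8 kb for those in WT alone.

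**Figure D2:**
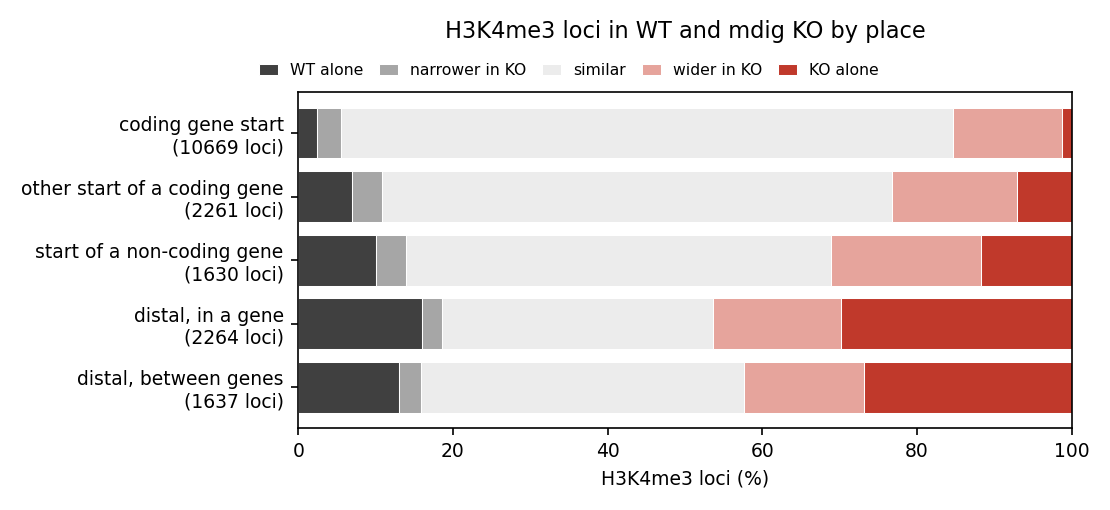
Percent of H3K4me3 loci (horizontal axis) in WT alone, narrower in KO, similar, wider in KO and in KO alone, for 5 classes of place (vertical axis, with the number of loci). The KO alone share is 1.27% at coding gene starts and 28.6% over all distal loci.

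Among distal loci in KO alone the widest was 20.6 kb, from 134041201 to 134061800 on chromosome 3, with its nearest coding start 32.5 kb away at AMOTL2, an angiomotin of the Hippo pathway. KO islands of 13.4 kb lay in NUAK2, a stress-responsive kinase, of 12 kb in TRAM2, of 10.8 kb in SPSB1 and of 9.6 kb at 44.8 kb from IER5, an immediate early gene. Among those in WT alone, 16 kb lay in MEGF6, 15.8 kb in ZC3H3, 13.4 kb in RXRA, a retinoid receptor, 11.2 kb at 18.5 kb from SLC25A10 and 8.6 kb in MACF1. All of these but the SLC25A10 locus held H3R8me2a islands in both libraries, and that locus held 1 in WT alone. This was not so of distal loci in general, since H3R8me2a was at 4.84% of all those in KO alone in WT and 10.7% in KO, and at 14.8% and 10.8% of those in WT alone. Among shared distal loci, a locus in EYA2, a developmental phosphatase, was 3.8 kb wide in WT and 20.6 kb in KO. A pair of loci at SHB, an adaptor of receptor kinases, went from 5.4 kb to 17 kb and from 5.4 kb to 16 kb, a locus 239.4 kb from KLF4 from 3.6 kb to 13.6 kb, and a locus in RIN2 from 9.6 kb to 19 kb. The reverse held in CAPN2 (9 kb and 3 kb), RPTOR (14 kb and 8 kb) and RAI1 (14.4 kb and 8.6 kb), near TTLL10 (9.6 kb and 4.4 kb) and near FBRSL1 (6.6 kb and 1.6 kb).

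Gene classes are given by the number of members under each call, to be read against the shares over all marked promoters above, and by the median KO to WT width ratio of members marked in both, which was 1.103 over all 12720 promoters. The CXC chemokine cluster of chromosome 4 encodes attractants of neutrophils. The study named it for a gain of H3K4me3 in these samples, so its direction is not independent evidence. Of its 9 genes 6 were marked, 2 of them wider in KO and 1 in KO alone, and each of the 6 had the longer island in KO, with a median ratio of 1.38. CXCL8 had 1.8 kb in WT and 4.4 kb in KO, CXCL6 1.4 kb and 3 kb, and CXCL5 no island and 2.4 kb. CXCL1 had 4.2 kb and 5.6 kb, CXCL2 4.2 kb and 5.8 kb and CXCL3 4 kb and 4.6 kb, which did not meet the rule. PF4, PF4V1 and PPBP, the platelet chemokines of the cluster, had no island in either library. The islands at CXCL8 and CXCL5 are small, and both promoters are poor in CpG in the sequences above. In the same window the H3K9me3 islands numbered 1 in WT and 6 in KO and none touched a chemokine promoter.

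Other targets of NF-kB, the inflammatory transcription factor, had a median ratio near that of all promoters. Of 20 genes 14 were marked, with a median ratio of 1.14. KO islands were longer at 10 and shorter at 3 of the 13 marked in both. CCL2, a monocyte chemokine (5 kb in WT, 8 kb in KO), and PTGS2, cyclooxygenase-2 (3.2 kb and 5 kb), were wider, and CSF2, a myeloid growth factor, had 2.6 kb in KO alone. LIF, a cytokine of the interleukin-6 family, was narrower, from 18.2 kb to 6.2 kb. The island at IL6 was 6.6 kb and 5.6 kb, and those at TNFAIP3, NFKBIA and ICAM1 differed by 0.8 kb or less. Of 19 interferon-stimulated genes 17 were marked, 4 wider and 1 in WT alone. The antiviral effectors OASL (3.6 kb and 7.6 kb), OAS3 (5.8 kb and 9 kb) and RSAD2 (2.2 kb and 3.6 kb) were among the wider ones. IFIT2, another antiviral effector, which lies on 10q, had 3.8 kb in WT alone. The islands were shorter in KO at 9 and longer at 6 of the 16 genes marked in both, and the median ratio was 0.97.

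**Figure D3:**
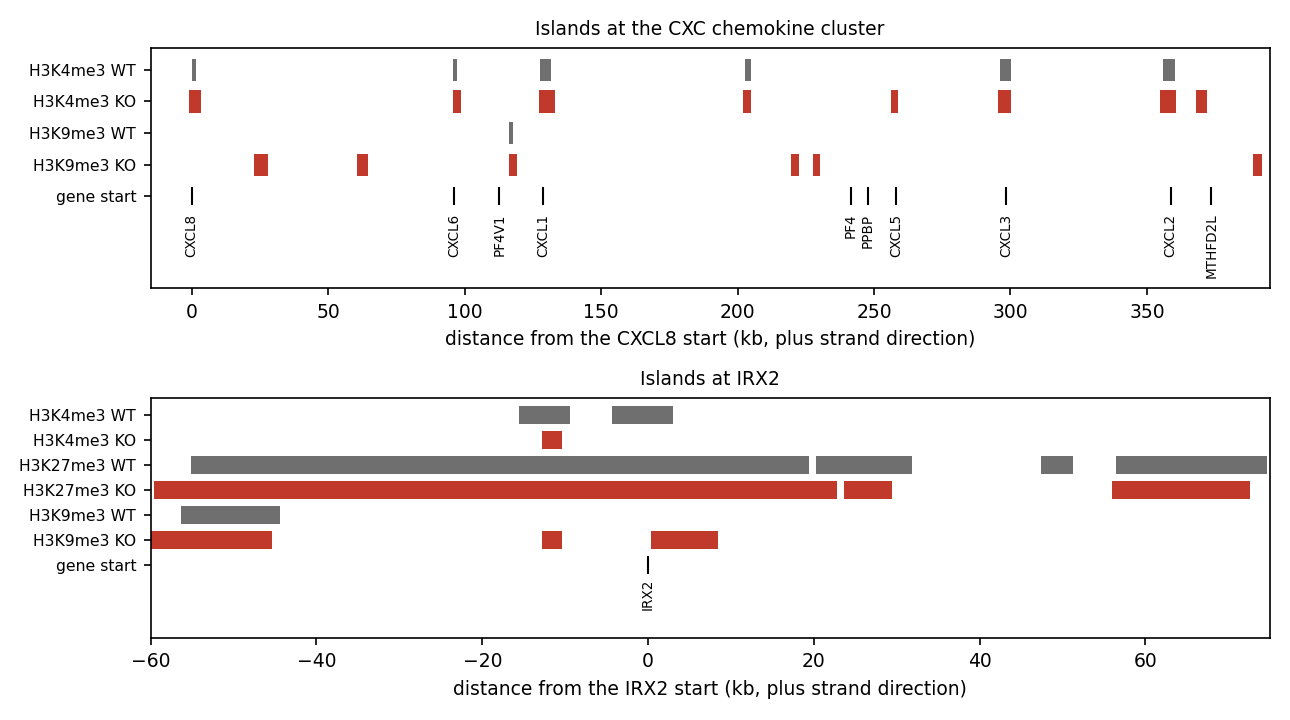
Islands in WT (gray) and mdig KO (red) at the CXC chemokine cluster (above) and around IRX2 (below), with gene starts as ticks. The horizontal axes give the distance in kb from the CXCL8 and the IRX2 start. H3K4me3 at CXCL5 is seen in KO alone, and the 7.4 kb H3K4me3 island over the IRX2 start is seen in WT alone.

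Lists of developmental regulators differed in how many marked promoters were in WT alone, against 2.34% over all marked promoters. The number was 3 of 12 FGF ligands, 2 of 12 WNT ligands and 1 of 3 Iroquois genes. It was 1 of 31 forkhead factors, 1 of 25 HOX genes and 0 of 13 SOX factors. Of 6 Iroquois genes, which pattern neural and lung tissue, 3 were marked. IRX2 was named by the study for a loss of H3K4me3 in these samples, so its direction is not independent evidence. IRX2 had its island from 2747401 to 2754800 on chromosome 5 in WT and none in KO, where an H3K9me3 island ran from 2752201 to 2760200. A second H3K4me3 island, past the 3′ end of the gene, measured 6.2 kb in WT but 2.4 kb in KO. H3K27me3 covered the IRX2 start in both, in islands of 74.6 kb and 82.4 kb. IRX1 had 16.4 kb and 14 kb, and IRX3 was narrower, with 7.8 kb and 5 kb.

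Of 14 genes of cell growth and stemness, which the study picked on these samples so that their direction is not independent evidence, 12 were marked, 4 in WT alone, 1 narrower and 7 similar, and the median ratio was 0.95. The 4 were WNT5A, a Wnt ligand (5 kb), BICC1, an RNA-binding protein (4.6 kb), APCDD1, a Wnt inhibitor (3.8 kb), and FGFR2, a growth factor receptor (1.8 kb), and all had H3K27me3 in both libraries. PDGFB, a platelet-derived growth factor, was narrower, from 9.2 kb to 5.2 kb. BICC1 and FGFR2 lie on 10q and PDGFB on 22q, 2 arms on which loci as a whole were less often kept in KO, and WNT5A lies on 3p, where they were more often wider. Of 19 WNT ligands 12 were marked, with WNT3A and WNT5A in WT alone, WNT7B (22q) narrower from 13.8 kb to 3.8 kb, and WNT10A (5.4 kb and 9.2 kb) and WNT2 (3 kb and 4.8 kb) wider. Of 22 FGF ligands 12 were marked. FGF17 (7.8 kb), FGF10 (1.6 kb) and FGF3 (1.4 kb) were in WT alone, FGF17 at a shared locus, while FGF22 was wider, from 3.6 kb to 11.6 kb. The WNT5A island lay inside the gene, short of the annotated start, and had a CpG ratio of 0.70, against 0.16 in the 1 kb around that start. All 5 TGF-beta genes that the study names, TGFB2, TGFBR2, RHOA, SMAD3 and SMAD6, were similar.

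HOX genes, which set position along the body axis, were called in both directions. Of 39 genes 25 were marked, 8 wider, 6 narrower, 1 in WT alone and 1 in KO alone, and 9 were similar, with a median ratio of 1.13. In the HOXA cluster HOXA9 (4.2 kb and 10.4 kb), HOXA10 (5 kb and 22.4 kb) and HOXA11 (5 kb and 12 kb) were wider, while HOXA3 (10.2 kb and 5 kb) and HOXA7 (7 kb and 3.6 kb) were narrower and HOXA4 had 1 kb in WT alone. In the HOXB cluster HOXB3, HOXB5 and HOXB6 stood under 1 WT island of 24 kb and under 16 kb in KO, and HOXB4 had 16.2 kb and 7.4 kb. HOXB9 (7.6 kb and 14.4 kb) and HOXB13 (6.2 kb and 9.6 kb) were wider. HOXC8 had 2.4 kb in KO alone, and HOXC4 and HOXC9 were wider, at 1.6 kb and 5.2 kb and at 2.2 kb and 4.4 kb. Within the HOXA and HOXB clusters the wider members carried the higher numbers, from HOXA9 and HOXB9 on, and the narrower ones the lower numbers, an order seen after the values were known. It did not extend to the other clusters, where HOXC4 and HOXD1 (2.4 kb and 4.4 kb), of low number, were wider. In HOXB it rests on few islands, since HOXB3, HOXB5 and HOXB6 share 1 WT island.

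Of 45 forkhead factors 31 were marked, 4 wider, 2 narrower and 1, FOXJ1, in WT alone. FOXL2 had 9.4 kb and 21.2 kb, and FOXD2 4.4 kb and 7.8 kb. FOXH1 had 24 kb and 10.6 kb, and FOXA1, a pioneer factor of airway and other endoderm, had 9.4 kb and 3.2 kb. Of 19 SOX factors 13 were marked, with SOX12 wider (9.4 kb and 15.8 kb), SOX18, a vascular factor, in KO alone at a shared locus (13.6 kb) and 11 similar.

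**Figure D4:**
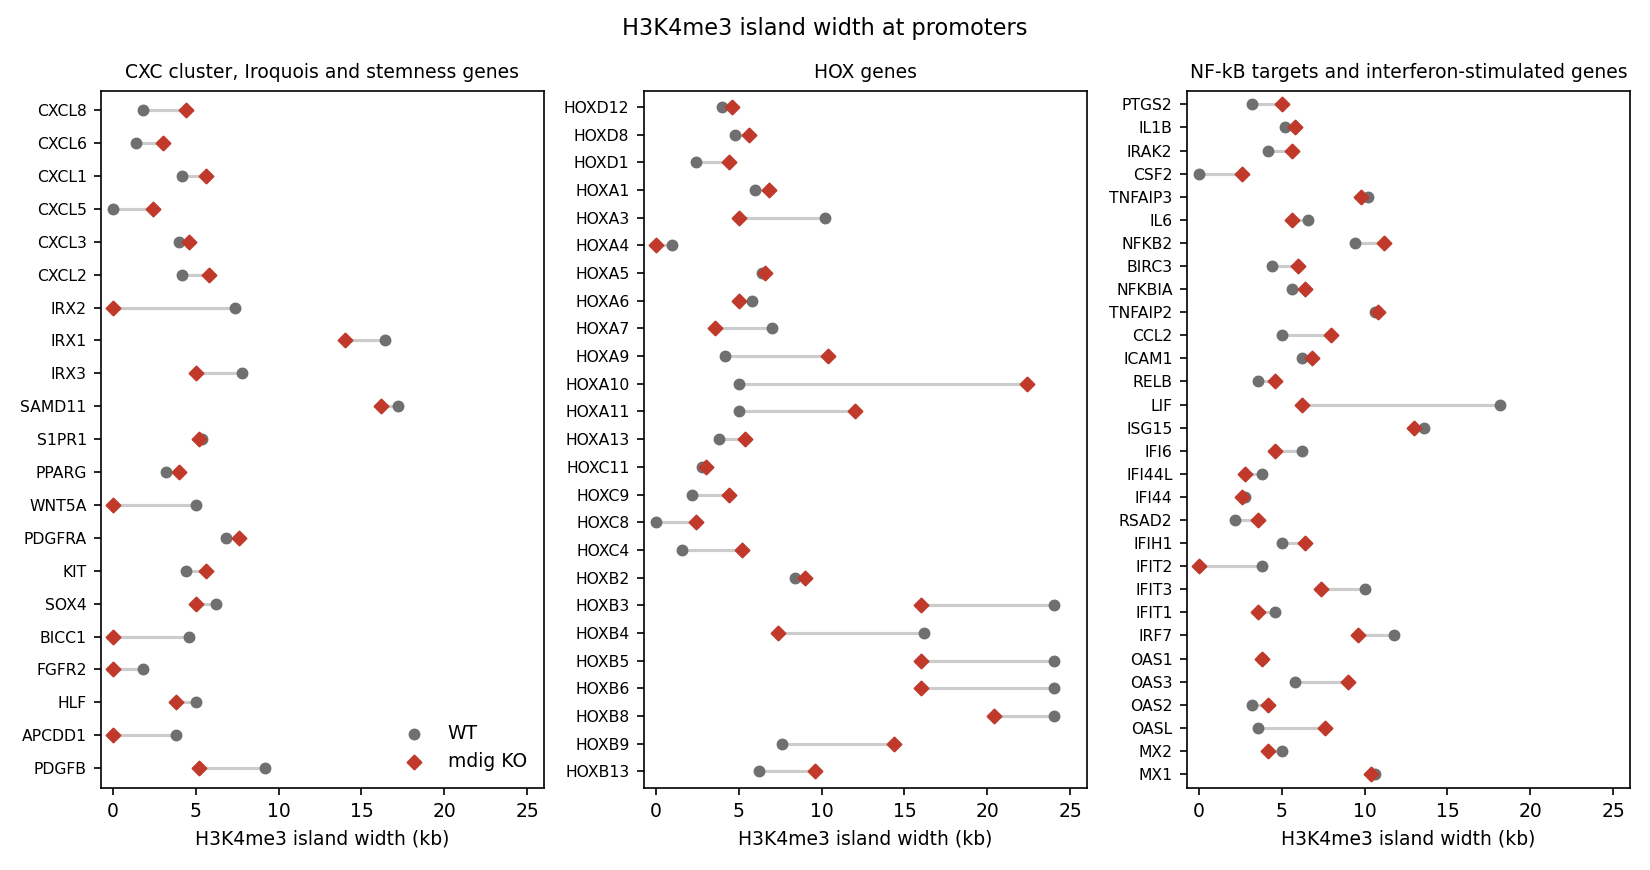
H3K4me3 island width at the promoter (horizontal axis, kb) in WT (gray circles) and mdig KO (red diamonds) for marked members of 6 gene lists, 1 value per library, with 0 for no island. IRX2, WNT5A, BICC1, FGFR2, APCDD1, HOXA4 and IFIT2 are at 0 in KO, and CXCL5, CSF2 and HOXC8 at 0 in WT.

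Replication-dependent histone genes, which lie in tight clusters and supply histones in S phase, had 52 of 58 genes marked. Of these 16 (30.8%) were wider, 1 narrower and 2 in KO alone, with a median ratio of 1.16. H4C1 (3.6 kb in WT), H3C1 (6.6 kb), H3C2 and H2AC4 (9.4 kb each) all stood under a single KO island of 19.4 kb. H2AC16, H3C11 and H4C13 had 4.4 kb and 13 kb, and H2BC3 and H3C3 shared 3.6 kb in KO alone. Since many of these genes share 1 island, the 16 genes are far fewer loci. They lie on 6p, where the median ratio of all shared loci was 1.15.

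Genes of the matrix and its receptors had more wider than narrower members, as promoters had overall. Of 44 collagens 25 were marked, 7 wider, 2 in KO alone and 1 narrower, with a median ratio of 1.19. COL9A3, a cartilage collagen, had 2.8 kb and 34.6 kb, COL1A1, the main fibrillar chain, had 6.8 kb and 16.4 kb, COL7A1 had 11 kb in KO alone and COL11A2 stood under 26.4 kb in KO alone. COL13A1 on 10q was narrower, with 6 kb and 3.6 kb. Of 26 integrins 15 were marked. ITGA11 (2.8 kb and 5.8 kb), ITGA9 (1.2 kb and 4 kb, on 3p) and ITGB4 (9.2 kb and 14.6 kb) were wider. ITGA7 (18.4 kb and 8 kb) and ITGA4 (5.4 kb and 3.2 kb) were narrower, and ITGB5 had 0.8 kb in WT alone. Of 12 laminins 9 were marked, and LAMB1, a basement membrane chain, was wider, at 5.8 kb and 10.8 kb.

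Genes that add or remove methylation of H3K4 had H3K4me3 at their promoters in both libraries wherever they were marked. Of 18 genes of H3K4 methyltransferases and their subunits 16 were marked, all in both libraries. SMYD3, a methyltransferase (9.6 kb and 19.6 kb), and WDR82, a subunit of SETD1 complexes (8.2 kb and 15 kb, on 3p), were wider. CXXC1, the CpG-binding subunit of SETD1 complexes, was narrower, at 10.6 kb and 4.2 kb, and lies on 18q. The 6 H3K4 demethylases, among them KDM1A, KDM5A, KDM5B and KDM5C, were all similar.

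Housekeeping genes stayed marked in both libraries. Of 81 ribosomal protein genes 76 were marked, all in both libraries, with 6 wider, 4 narrower and a median ratio of 1.00. RPL35A (3q) had 7.8 kb and 16.8 kb and RPL14 (3p) 5 kb and 10 kb, while RPL35 had 25 kb and 13.4 kb. Of 37 genes of respiratory complex I 35 were marked, 5 wider and 1 narrower, with NDUFS6 at 14.2 kb and 29.2 kb. Of 20 replication licensing genes 19 were marked and 3 were wider, among them MCM2 (3q), a helicase subunit, with 8.4 kb and 27.2 kb. The median ratio was 1.11 for complex I and 1.095 for replication licensing.

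Zinc finger genes were close to the background, with 430 of 508 marked, 67 wider, 15 narrower, 3 in WT alone and 5 in KO alone. The widths of ZNF467 were 4.2 kb and 17 kb and those of ZNF768 5 kb and 17.2 kb. Of 53 clustered protocadherins, cell adhesion genes of neurons on 5q, 15 were marked, with PCDHAC2 (2.4 kb), PCDHGA1 and PCDHB5 (1.4 kb each) and PCDHGA7 (0.8 kb) in WT alone and the other 11 similar. These islands are narrow, and among all loci under 2 kb 48.8% were shared. On 5q 11.1% of all loci were in WT alone. Keratins were marked at 6 of 55 genes, KRT80 being wider (12.4 kb and 20.2 kb) and KRT86 in KO alone at a shared locus (5.8 kb). Olfactory receptors, which are silent outside the nose, were marked at 2 of 399 genes.

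Markers of the labelled cell type were partly present. Of 21 airway epithelial markers 13 were marked in at least 1 library. KRT5, KRT14, KRT19, TP63, GRHL2, CLDN4, SCGB1A1 and MUC5AC had no island in either, among them the defining genes of basal, club and goblet cells. Only the annotated gene start was examined, so other transcript starts of these genes, such as those of TP63, were not covered. EPCAM, an epithelial adhesion molecule (2.4 kb and 4.2 kb), CLDN1 (6 kb and 11.4 kb) and OCLN (8.4 kb and 13 kb), proteins of tight junctions, were wider in KO. CDH1, E-cadherin, had 2.2 kb and 2 kb, and KRT8 and KRT18 stood under 10 kb and 10.6 kb. FOXJ1 was in WT alone. Of the 12 epithelial markers marked in both, 9 were similar. KO islands were longer at 8 of the 12 and shorter at 4, with a median ratio of 1.06. Of 16 mesenchymal markers 14 were marked in both. SNAI1 (12.6 kb and 5.4 kb), a repressor of epithelial genes, TAGLN (10.4 kb and 6.6 kb), CDH2, N-cadherin (7.4 kb and 4.6 kb, on 18q), and PRRX1 (6.4 kb and 3.6 kb) were narrower and none was wider. VIM, vimentin, had 9 kb and 10.6 kb. Of the 14 mesenchymal markers 10 were similar. KO islands were longer at 7 of the 14 and shorter at 7, with a median ratio of 1.01. H3K4me3 was at 3 of 12 leukocyte, 5 of 9 endothelial, 8 of 10 neuronal and 0 of 10 hepatocyte markers in at least 1 library. CLDN5 and EGFL7 among the endothelial and STMN2 (1.8 kb) and ELAVL3 (1.4 kb) among the neuronal markers were in WT alone, and ERG, an endothelial factor, was in KO alone with 2.2 kb. An island shows the mark and not expression.

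The promoters with an H3K4me3 island of their own in WT alone were mostly promoters with H3K27me3 in both cells. H3K27me3 islands touched 72.5% of these 265 promoters in WT and 75.5% in KO. The shares were 41.6% and 38.7% of the 137 with an island of their own in KO alone, and 11.9% and 12.4% of the 12720 marked in both. At promoters marked in both with a mean width of at most 3 kb they were 32.2% and 33.6%, between those values. An H3K27me3 island was present in KO and not in WT at 9 of the 265. H3K9me3 was at 2.26% of the 265 in WT and 14.0% in KO, and at 3.65% and 15.3% of the 137. The H3K9me3 shares in WT and KO were 2.63% and 6.63% of the promoters marked in both. At those marked in both with a mean width of at most 3 kb they were 5.89% and 12.2%. Over all 20098 genes, marked or not, they were 2.86% and 11.1%.

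The KO to WT width ratio of H3K4me3 varied with the state of H3R8me2a and H3K27me3. At promoters marked by H3K4me3 in both, the median KO to WT ratio was 1.17 at the 2167 with H3R8me2a in KO alone and 1.03 at the 987 with H3R8me2a in WT alone. It was 1.22 at the 209 with H3K27me3 in WT alone, of which 30.6% were called wider, and 1.13 at the 274 with H3K27me3 in KO alone, of which 15.0% were. At the 1304 with H3K27me3 in both it was 1.15, with 22.9% wider, and at the 10933 with H3K27me3 in neither 1.097, with 15.0% wider. At the 524 promoters with H3K9me3 in KO alone it was 1.099, against 1.103 at the 11861 with H3K9me3 in neither. Calls also varied with width, since 25.3% of shared loci of 2 to 4 kb mean width were wider in KO, against 14.5% of those of 6 to 8 kb. All marks were mapped in the same clones. The parts of island width and of the chromosome arms in these values were not tested.

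Promoters rich in CpG were more often marked, and those poor in CpG had the mark more often in 1 library alone. Over 5 classes of the observed to expected CpG ratio in the 1 kb around the start, the share of marked promoters went from 13.9% below 0.2 to 92.5% above 0.8. Of the marked ones, 13.3% of the lowest class and 0.505% of the highest were in KO alone, and 6.21% and 1.57% in WT alone. The median CpG ratio was 0.37 for KO alone, 0.68 for WT alone and 0.77 for similar promoters. The kind of locus went with this value. With an island of their own the medians were 0.55 for KO alone and 0.71 for WT alone, and at shared loci 0.29 and 0.30. CXCL5 had a ratio of 0.56 and CXCL8 of 0.30, while IRX2 had 0.94. TATAAA upstream of the start was found at 7.23% of KO alone, 3.86% of WT alone and 2.54% of similar promoters, and at 11.7% of those without the mark.

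Whole chromosome arms differed, and many named genes lie on the arms at the ends of the range. The median KO to WT width ratio of shared loci ran from 0.889 on 18q to 1.36 on 3p over 41 arms, and was above 1 on 37. On 18q 49 of 223 loci were in WT alone and 3 in KO alone. The shares in WT alone were 21.5% on 5p, the arm of IRX2, 15.0% on 10q, that of BICC1, FGFR2 and IFIT2, and 10.4% on 22q, that of PDGFB, LIF, WNT7B and CLDN5. On 3p, by contrast, 2.13% were in WT alone and 86 loci in KO alone. Loci in KO alone outnumbered those in WT alone on 26 arms and the reverse held on 12.

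The other marks moved with the same arms. The ratio of covered length of H3R8me2a was 0.193 on 18q, 0.313 on 5p, 0.430 on 10q and 0.497 on 22q, and 11.9 on 3p, and the rank correlation of the arm's median H3K4me3 ratio was 0.633 with H3R8me2a, 0.628 with H3K27me3 and 0.678 with H3K9me3 over 41 arms of the same 8 libraries. On the 9 arms where H3R8me2a covered less in KO (5p, 5q, 6q, 10p, 10q, 14q, 15q, 18q and 22q), 97 of 2709 marked promoters were in WT alone (3.58%) and 18 in KO alone, 5.94% were wider and 6.98% narrower. On chromosome 3 37.1% of 739 marked promoters were wider. On the remaining arms 202 of 9832 were in WT alone and 212 in KO alone, and 16.3% were wider and 3.39% narrower. Distal loci there numbered 302 in WT alone and 846 in KO alone, so the excess of distal loci in KO was found without those arms. Promoters with an island of their own there numbered 166 in WT alone and 116 in KO alone, and promoters at shared loci 36 and 96. The excess of WT alone was thus found without those arms for islands of their own, but not over both kinds together. H3K27me3 was at 79.5% of the promoters with an own WT-alone island on the 9 arms and at 68.9% on all other arms. What makes whole arms differ was not tested.

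**Figure D5:**
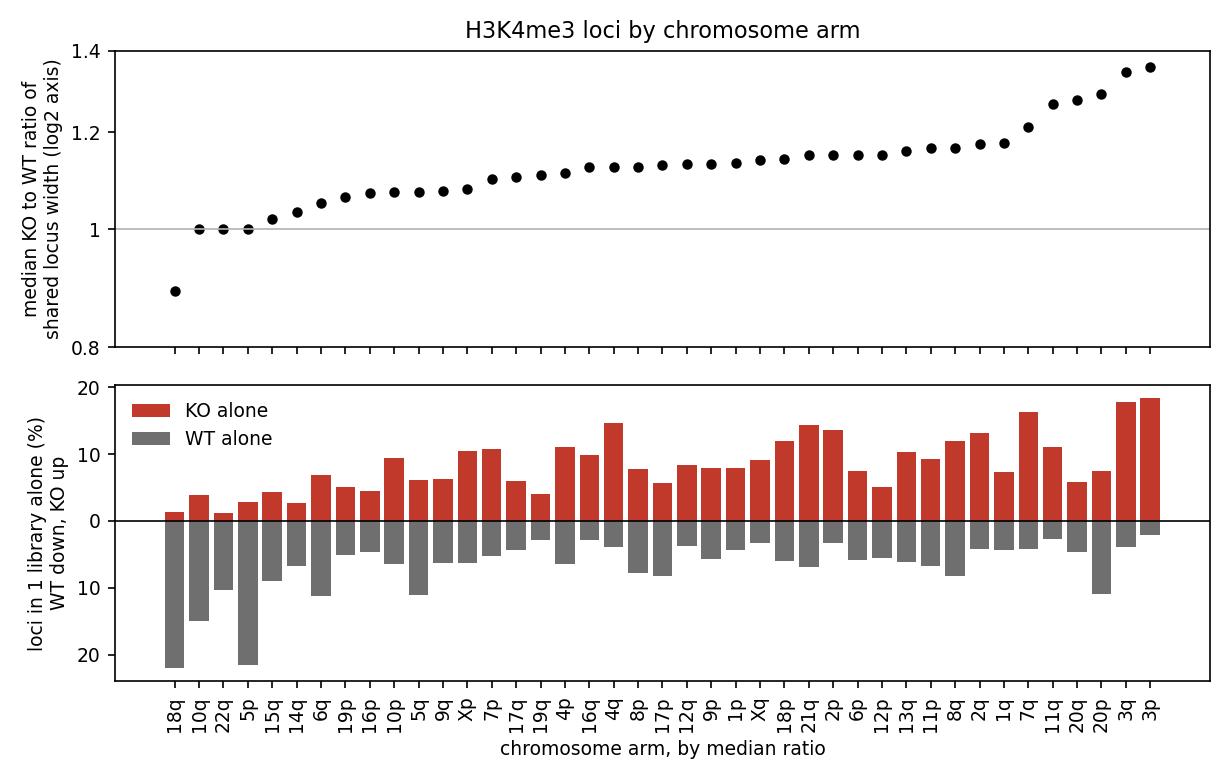
Median KO to WT width ratio of shared H3K4me3 loci (upper panel, log2 axis) and percent of loci in KO alone (red, upward) and WT alone (gray, downward) (lower panel) for 41 chromosome arms ordered by the ratio. 18q stands lowest at 0.889 with 49 of 223 loci in WT alone, and 3p highest at 1.36.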

How the data were processed

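ChIP-seq of 4 histone marks was done once in WT and once in mdig KO BEAS-2B cells, with 1 input of WT. Reads of 75 nt were aligned by the authors to hg19 (BWA, default settings), extended to 200 bp, and the authors randomly sampled libraries of a comparison to the smallest. The submitters' processing notes name SICER 1.1 but no BWA version. The deposited values are island coordinates (start and end), called per library, with no count, height, score or p-value. The depth behind an island is therefore unknown, and no interval or limit of detection can be given. The input has no islands of its own, and 21 H3K4me3 islands on chromosome Y were left out.

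Islands were placed on GENCODE 44 genes mapped to GRCh37, with pysam 0.24.0, scipy 1.17.1, numpy 2.4.6 and Python 3.11.15, and figures were drawn with matplotlib 3.10.9. Coordinates are 1-based. A promoter was 2 kb on both sides of a gene start, 1 shared base counted as overlap, and the width call needed a factor of 1.5 and a difference of 1 kb. Base composition was taken in the 1 kb centered on the start. The call was tested on simulated data, in which 600 of 600 promoters came out in the class they were made with, which checks the code alone. No test between genotypes was run, because each has 1 library.

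The genes named are RIOX2, the 10 widest promoters in WT alone and in KO alone, the 10 largest width differences each way, called members of short gene lists and up to 4 of longer ones, and the 5 widest or most different distal loci of each kind. The further genes, among them those with islands of their own and other list members, were picked after their values were seen. Members and lists were chosen with earlier results of these data known. DDX58 and PECAM1 were not found by symbol. Alternatives changed the islands kept, their joining, the chromosomes, the window, the starts, the factor, the scaling and the overlap. Some items are not reported here.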

Additional observations from a re-analysis of the deposited data

How the results depend on the processing

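No paired analysis was possible because there is 1 library per condition and no replicate numbers to pair. Under the alternatives listed at the outset 51 recomputed values stayed close to those reported, 5 moved and 1 reversed, and under those chosen after seeing the data 3 stayed close, 9 moved and 1 reversed. With a factor of 2, 673 promoters were wider and 142 narrower in KO. With KO widths scaled to equal total length, 1085 were wider and 981 narrower, and the share of shared loci wider in KO was 43.2% at coding starts, against 63.6% as deposited, and 56.8% at distal loci, against 66.1%. With KO widths divided by the median ratio of the arm, chosen after seeing the data, 1030 were wider and 810 narrower, and these shares were 46.4% and 59.8%. The direction at coding starts thus changed under both scalings, and at distal loci it did not. This largely follows from the median ratios, 1.103 at coding starts and 1.25 at distal loci. The divisor for total length, 1.15, and the median of the arm ratios, 1.13, lie between them. The contrast is therefore not separate evidence of a distal gain. Both scalings divide widths by a factor, and distal loci were narrower than promoter loci. Whether more permissive calling would act alike on narrow and wide loci was not tested. Without chromosome 3 and the 9 arms with less H3R8me2a in KO, also chosen after seeing the data, the ratio of covered length was 1.18, promoters in WT alone numbered 202, narrower promoters 333 and distal loci in WT alone 302, in part because fewer loci remained, and the shares wider were 66.5% and 68.5%.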
